A study of Sus scrofa with 32 samples.

Results

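Runt fetuses are the small littermates that arise where many fetuses share a uterus, and the samples described here are their livers on gestational day 70 (4 fetuses) set against day 50 (4 fetuses), 8 of the 32 samples of a pig (Sus scrofa) series. The 8 samples were chosen by their labels alone. The rest of the series comprises control littermates on days 70 and 50, which serve as the reference course, and both fetus types on days 37 and 110. All fetuses, controls included, came from artificially inseminated gilts with 1 uterine horn and ovary removed, which crowds the remaining horn, so neither course is that of an uncrowded pregnancy. The labels give 4 pregnancies a day with a runt and a control littermate from each. They give no breed, sex or weight of a fetus. Total RNA of each liver was hybridised to its own 1-colour Agilent array.

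Between these days the fetal liver of mammals is a mixed organ. Hepatocytes take up their secretory work, releasing albumin, transport proteins and complement into plasma, and begin to express enzymes that clear drugs and hormones. The same tissue houses blood formation, with red cell precursors, megakaryocytes and myeloid cells among the hepatocytes, and resident macrophages (Kupffer cells) settle in its sinusoids. In such bulk tissue fewer cells of a type and less RNA per cell cannot be told apart.

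A level here is the log2 of a probe's background-subtracted signal relative to the 75th percentile of its array, so 0 is a probe at that percentile, and levels are compared within a gene only. Across the 8 runt arrays 59.4 to 62.8% of spots were well above background on day 70 and 59.8 to 65.4% on day 50 (exact permutation test of the means, two-sided p = 0.543, n = 4 each), and no spot was saturated. Arrays correlated at 0.972 to 0.983 within day 70 and 0.970 to 0.978 within day 50, against 0.950 to 0.969 between the days. Runt day 50 replicate 1 stood alone on its slide, with its own later scan, so results are also given without it where that matters. Day 70 arrays held position 3 of a slide and the other day 50 arrays position 2, so day and array position cannot be told apart. The tissue label was borne out by its markers. ALB, AFP, TTR, APOA1 and SERPINA1, products of hepatocytes, were well above background on all 8 arrays, as were HBE1, EPOR and RHCE of red cell precursors.

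Of 28681 features measured, 2291 passed the test in runts (7.99%), with 917 higher (3.2%) and 1374 lower (4.79%) on day 70. Passing means a Benjamini-Hochberg adjusted p under 0.05 in limma and a change of at least 2-fold. Genes could be named for 1578 features, of which 129 passed (8.17%), 111 higher (7.03%) and 18 lower (1.14%). The named genes thus leaned upward, with a median log2 change of 0.21 against 0.0079 over all features. The share of higher features among all that passed was 40.0%, and turned to 95.8% under normexp background correction, 53.1% after centring on the median, 50.3% in the authors' value table and 49.8% after quantile normalization. Day 70 and day 50 arrays did not overlap for 90 of the 111 genes that rose and 15 of the 18 that fell. On slide 2, which held replicate 4 of both days, 110 of the 111 rises and all 18 falls had the same direction, and on slide 8, with replicate 3 of both days, 105 and 18 had it.

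Controls moved in much the same way over this interval. In them 2195 features passed (7.65%), 829 higher (2.89%) and 1366 lower (4.76%), with 119 named genes (7.54%), 89 higher (5.64%) and 30 lower (1.9%). No array is shared with the runt comparison, but the controls were littermates of the runts and both comparisons come from the same fit. The share of higher features, 37.8% in controls, was 49.6% after centring on the median, 47.0% in the authors' value table, 47.3% after quantile normalization and 63.0% under normexp. Of the 111 genes that rose in runts, 54 also passed as higher in controls (48.6% of the runt genes and 60.7% of the 89 control genes), and 107 had the same sign. Of the 18 that fell, 9 passed as lower in controls (50.0% of the runt genes and 30.0% of the 30 control genes). The test of the difference between the courses passed 0 features in limma at an adjusted p under 0.05, with 687 at an unadjusted p under 0.05, so no gene below is shown to change by a different amount in runts.

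**Figure D1:**
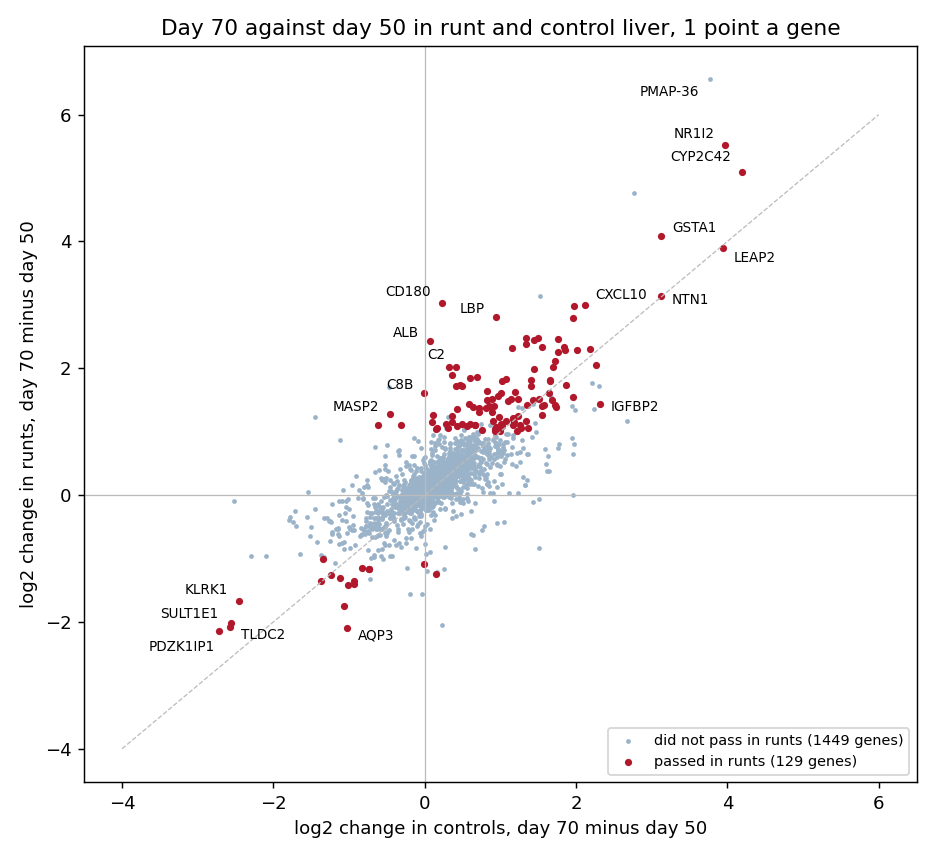
Fitted log2 change from day 50 to day 70 of 1578 named genes in runts (vertical axis) against controls (horizontal axis), with the 129 genes that passed in runts in red and equal change on the dashed line. NR1I2, CYP2C42 and GSTA1 lie far up in both courses, while ALB (2.43 in runts, 0.072 in controls), LBP and CD180 lie high in runts and near or below 1 in controls.

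Among the named genes that passed, the largest rises were those of NR1I2, CYP2C42 and GSTA1, genes of drug and toxin clearance. NR1I2 (NM_001038005), the pregnane X receptor that senses foreign compounds and induces drug-metabolizing enzymes, was at -0.55, -0.89, -1.74 and 0.49 in day 70 runts, against -6.10, -7.07, -6.07 and -5.51 in day 50 runts. All 4 day 70 arrays were well above background and none of the day 50 arrays was, which makes it at least 17.5-fold higher (adjusted p = 4.04e-09). Under normexp, another background correction, it was at 0.89 and did not pass. Its partner NR1I3, the constitutive androstane receptor, averaged 1.02 ± 0.70 on day 70 and -1.27 ± 0.77 on day 50 (SD, n = 4), a 4.91-fold rise (log2 change 2.29, SE 0.40, adjusted p = 0.000231). In controls both receptors rose too, NR1I2 by 3.97 and NR1I3 by 2.02 on the log2 scale. These were the 2 of 13 measured liver transcription factors that passed (15.4% against 7.03% of all named genes higher, list median 0.58). HNF4A (0.019) and PROX1 (-0.22), master regulators of hepatocyte identity, did not pass.

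CYP2C42, a cytochrome P450, stood at 0.20, 2.24, 0.39 and 1.23 in day 70 runts and -6.58, -4.40, -2.95 and -2.37 in day 50 runts, 34.1-fold higher (log2 change 5.09, SE 0.92, adjusted p = 0.000319). The 4 day 50 arrays were spread over more than 4 log2 units, 3 of them well above background, and all lay below the day 70 arrays. GSTA1, a glutathione transferase, was at 0.97, 0.012, -0.79 and 1.92 on day 70 and -2.62, -3.70, -4.38 and -3.56 on day 50 (17.1-fold, log2 change 4.09, SE 0.94, adjusted p = 0.00243), again without overlap. Under normexp neither passed, with CYP2C42 at 1.76 and GSTA1 at 1.56. Of the 24 measured genes of xenobiotic and retinoid metabolism, 7 rose and 2 fell (29.2% against 7.03% of all named genes higher and 8.33% against 1.14% lower, median 0.70, or 0.56 with the 1 member below background throughout its lower group set at its bound), against 4 and 1 in controls. Leaving out 1 runt array at a time gave 4 to 7 rises. The others that rose were CYP2C49 (2.45), CYP1A1 (2.29), the carboxylesterase CES1 (1.35), the sulfotransferase SULT1A3 (1.15) and ALDH2 (1.08), the aldehyde dehydrogenase of mitochondria. CYP2C49 did not pass without any 1 of 4 runt arrays (1.43 to 2.30) or CYP1A1 without any 1 of 6 (1.76 to 2.43). The pair that fell were SULT1E1 (-2.08), the oestrogen sulfotransferase, and NQO1 (-1.15), a quinone reductase. CYP2E1, the ethanol-oxidizing P450, varied too much to pass, at 6.19, 2.68, -0.70 and 5.90 in day 70 runts and -5.08, 1.36, 2.76 and 2.49 in day 50 runts (log2 change 3.14, SE 1.89, adjusted p = 0.233).

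ALB (NM_001005208), serum albumin, was at 8.03, 7.44, 6.12 and 7.54 in day 70 runts against 4.43, 3.47, 5.85 and 5.65 in day 50 runts. The lowest day 70 array (replicate 3) lay just above the highest day 50 array (also replicate 3), and the mean was 5.41-fold higher (log2 change 2.43, SE 0.59, adjusted p = 0.00351). With slide as a fixed block ALB was at 1.87 and did not pass (adjusted p = 0.0613). In controls ALB averaged 7.65 ± 0.81 on day 70 and 7.57 ± 0.41 on day 50 (SD, n = 4), a change of 0.072 (adjusted p = 0.942). The difference between the courses was 2.36 (SE 0.83), with an unadjusted p of 0.00846 that did not pass adjustment. A further ALB probe rose by 3.17 in runts and was at 0.53 in controls. AFP, the fetal relative of albumin, averaged 9.72 ± 0.34 in day 70 runts and 9.87 ± 0.75 in day 50 runts (log2 change -0.14, adjusted p = 0.766).

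Other plasma proteins changed little in comparison. Of 27 measured, 3 rose and 0 fell in runts (11.1% against 7.03% of all named genes), namely ALB, prekallikrein KLKB1 (1.39) and SERPINA7 (1.07), the thyroxine-binding globulin. KLKB1 did not pass without any 1 of 6 runt arrays (1.01 to 1.49), and SERPINA7 fell under 2-fold without runt day 50 replicate 3 (0.95). In all 12 members had an adjusted p under 0.05, among those under 2-fold the coagulation factors F7 (0.89), F9 (0.66) and F10 (0.82). Transthyretin TTR (0.18), antitrypsin SERPINA1 (0.11) and transferrin TF (0.031) did not pass. None of 9 apolipoprotein genes passed. All 9 lay above 0 (median 0.56, against 0.21 over all named genes), and 5 had an adjusted p under 0.05 in limma at under 2-fold. APOA4, an apolipoprotein of triglyceride-rich particles, was at 0.83, 1.26, -0.19 and 1.18 in day 70 runts and -0.32, 3.72, -0.34 and -1.09 in day 50 runts, where replicate 2 lay far above the rest.

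Complement genes had the largest share of rises among the gene lists, 12 of 22, as against 7 of 15 for the lymphocyte list and 12 of 26 for the interferon list, both given further on. Complement is a plasma protease cascade made mainly by hepatocytes that tags and punctures microbes. Of 22 measured members, 12 rose and 0 fell in runts (54.5% against 7.03% of all named genes, median 1.26), while in controls 2 rose, MBL1 and C6 (median 0.47). This list too was chosen with earlier results of these data known, so its share is no independent evidence. The count of rises was 10 to 12 when 1 runt array was left out, and 12 without runt day 50 replicate 1. Among the pattern recognizers MBL1, a mannose-binding lectin, was at 2.02, 2.03, 1.78 and 2.72 in day 70 runts and -0.017, -1.19, -0.24 and 0.72 in day 50 runts (5-fold, adjusted p = 1.06e-05), with no overlap. FCN2, a ficolin, was at 5.99, 5.72, 4.46 and 5.95 on day 70 and 4.04, 4.69, 3.34 and 0.15 on day 50 (log2 change 2.47, adjusted p = 0.0415). Its groups overlapped, and it did not pass without any 1 of 5 runt arrays, being at 1.50 without the low runt day 50 replicate 4. Their protease MASP2 was at -3.40, -2.94, -3.14 and -2.81 on day 70 and -4.65, -4.94, -3.74 and -4.06 on day 50 (2.42-fold, adjusted p = 0.00744), without overlap.

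In the classical and alternative pathways C2, the protease subunit of the C3 convertase, was at -0.09, 1.02, 0.17 and 0.46 in day 70 runts and -1.43, -2.34, -1.02 and -1.76 in day 50 runts (4.07-fold, SE of the log2 change 0.36, adjusted p = 0.000285). C3, the hub of the cascade, was at 5.93, 6.23, 5.64 and 6.35 on day 70 and 4.47, 2.86, 4.74 and 5.13 on day 50 (3.33-fold, adjusted p = 0.0048). For both genes every day 70 array lay above every day 50 array. C1S (1.90), C4A (1.84) and CFB (1.51), which start or amplify the cascade, rose as well. Among the terminal components that build the membrane pore, C8B (1.61), C8A (1.24) and C9 (1.12) rose. C6 rose by 2.31 with 1 of 4 day 50 arrays above background, but another C6 probe below background in both groups was at -0.052. C6 turned to -0.30 under normexp background correction. Of 2 other C9 probes, at 0.26 and 0.51, neither passed. C5 (0.61, adjusted p = 0.0257), C7 (0.67), C4BPA (1.38) and C8G (-0.39) did not pass, nor did the regulators CD55 (-0.19) and CD59 (-0.32). C8A, C8B and FCN2 were the 3 of the 12 whose arrays overlapped between the days.

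**Figure D2:**
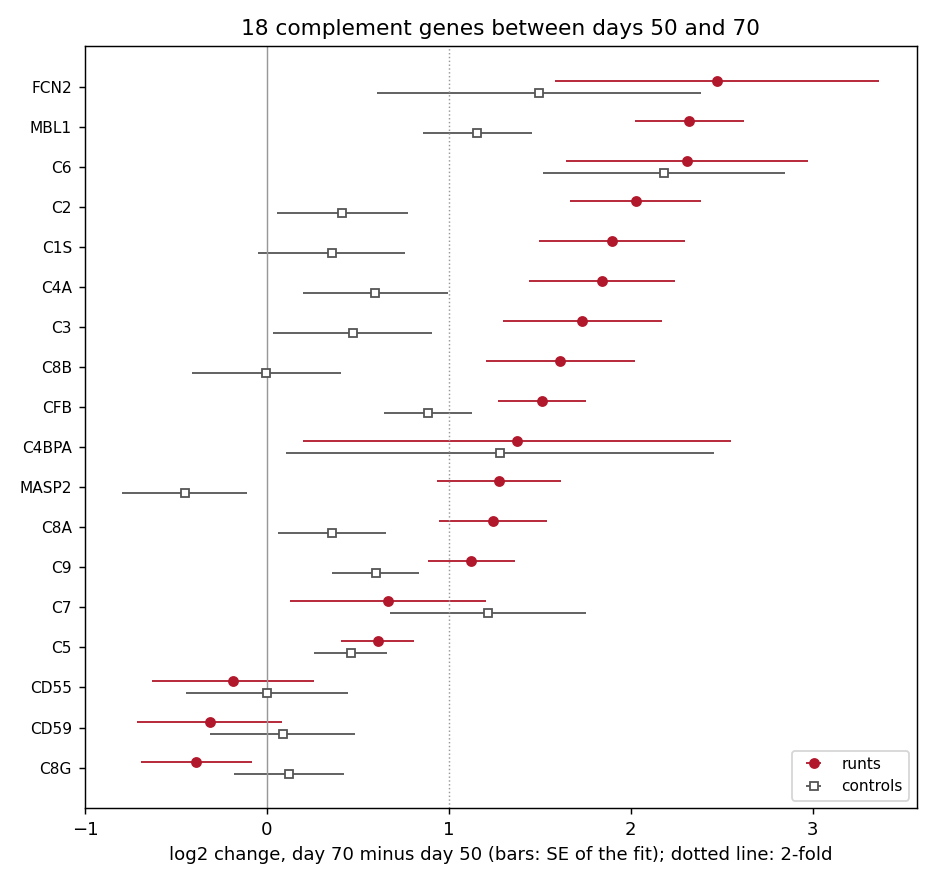
Fitted log2 change from day 50 to day 70 (horizontal axis, bars are the SE of the fit) of 18 of the 22 complement genes, those named in the text, runts as red circles and controls as open grey squares, with the dotted line at 2-fold. In runts 12 genes passed; in controls MBL1 and C6 did, and MASP2 (1.27 in runts, -0.45 in controls) and C8B (1.61 in runts, -0.003 in controls) lie farthest from their control values.

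The difference between the courses was above 0 for 17 of the 22 complement genes (median 0.40, against 0.083 over all named genes). Of the 22, 7 had an unadjusted p under 0.05, against 687 of all 28681 features, and none passed adjustment. MASP2 had the smallest in limma (difference 1.73, SE 0.48, unadjusted p = 0.00136), then C2 (difference 1.61, unadjusted p = 0.00393). Runts were below controls in 18 of the 22 genes on day 50 (median -0.76, against -0.044 over all named genes). On day 70 they were below in 18 (median -0.17, against 0.033), and 0 of these runt-control differences passed on either day. These comparisons share the runt arrays with the day comparison. C2 for example averaged -1.64 ± 0.56 in day 50 runts against -0.073 ± 0.75 in day 50 controls, and 0.39 ± 0.47 in day 70 runts against 0.34 ± 0.46 in day 70 controls (SD, n = 4 each).

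LBP, the lipopolysaccharide-binding protein that hands bacterial endotoxin to CD14, was at -0.013, 0.91, -0.31 and 1.20 in day 70 runts and -3.01, -2.90, -1.73 and -1.82 in day 50 runts. The groups did not overlap and the mean was 7.03-fold higher (log2 change 2.81, SE 0.38, adjusted p = 1.57e-05). Control arrays were at 0.88, 1.57, 0.96 and 0.64 on day 70 and 0.23, 0.30, -0.50 and 0.25 on day 50, a change of 0.94 (adjusted p = 0.0657). The difference between the courses was 1.87 (unadjusted p = 0.00156), not past adjustment. On day 50 LBP was lower in runts than in controls by 2.43 on the log2 scale (adjusted p = 0.00459), and on day 70 the runt minus control value was -0.56 (adjusted p = 1.00). Over all features 19 differed between runts and controls on day 50 (0.0662%) and 0 on day 70 in limma. NR1I2 was the other named gene lower in day 50 runts than in controls (-2.28, adjusted p = 0.0201). CD14 itself rose in both courses, 1.81 in runts and 1.65 in controls. With haptoglobin HP (1.06), LBP and CD14 were the 3 of 12 acute phase genes that passed in runts (25% against 7.03% of all named genes higher). HP did not pass without any 1 of 4 runt arrays (0.87 to 0.94).

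**Figure D3:**
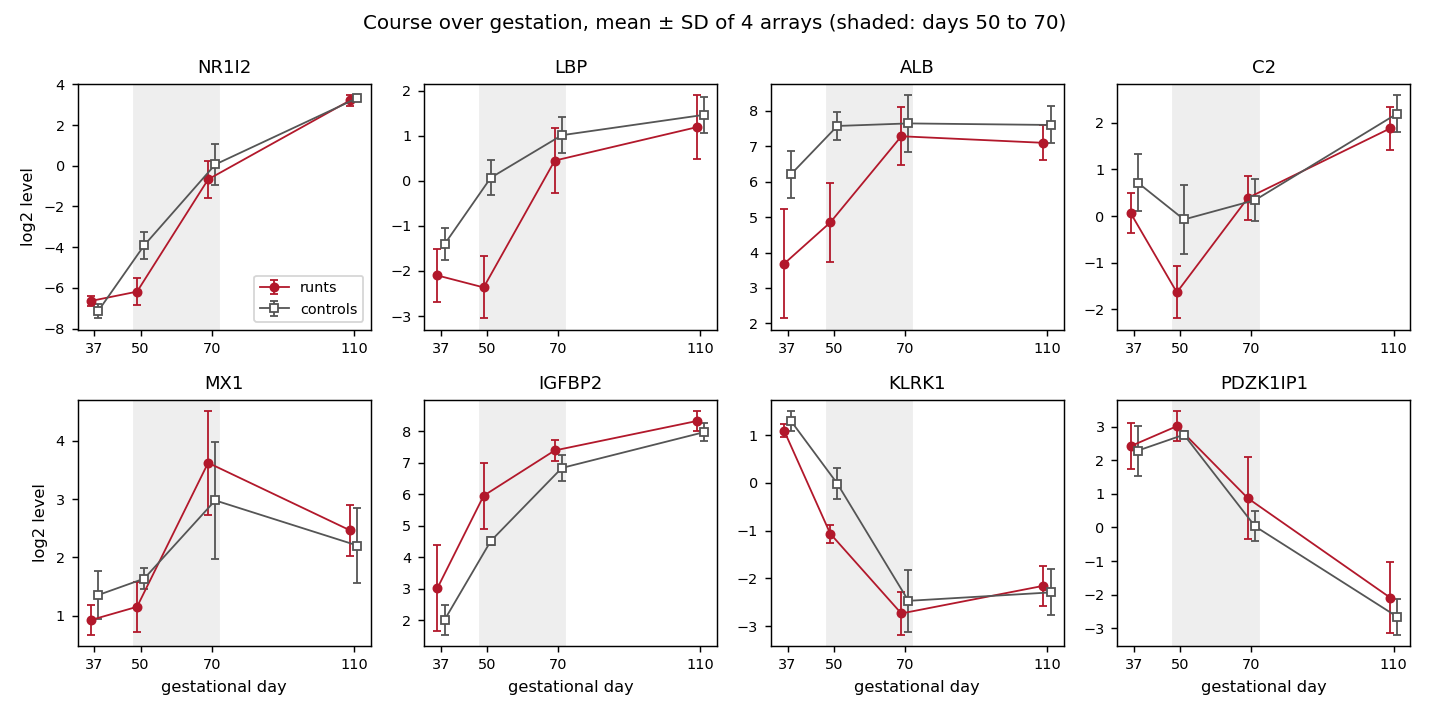
Mean log2 level (vertical axis, bars are the SD of 4 arrays) over gestational day for 8 genes in runts (red circles) and controls (open grey squares), with days 50 to 70 shaded. Runt LBP, ALB and C2 lie below the controls on day 50 and close to them on day 70, and MX1 peaks on day 70 in both courses.

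Enzymes of amino acid and sugar metabolism rose in part. DAO, D-amino acid oxidase, was at 0.62, 1.15, 1.19 and 2.06 in day 70 runts and -1.01, -1.36, -1.03 and -1.15 in day 50 runts (5.24-fold, adjusted p = 0.00235), and GNMT, which consumes methyl groups, rose by 1.64 (adjusted p = 0.00363). Neither group pair overlapped, and these were the 2 of 10 amino acid catabolism genes that passed (20% against 7.03% of all named genes higher). With them, 7 of the 10 had an adjusted p under 0.05 in limma. Under normexp GNMT was at 0.07 and did not pass. NAGS, which makes the activator of the urea cycle, rose 2.11-fold (adjusted p = 9.62e-06), while OTC (0.48) and ARG1 (0.30), enzymes of the cycle itself, did not pass. FBP1, a gluconeogenic phosphatase, averaged 6.68 ± 0.34 on day 70 and 5.37 ± 0.18 on day 50 (2.47-fold, adjusted p = 0.000137). It was the 1 of 6 gluconeogenesis genes that passed (16.7% against 7.03% of all named genes higher). With FBP1, 5 of the 6 had an adjusted p under 0.05 in limma, the others at under 2-fold. In the authors' value table and after quantile normalization NAGS (0.96 and 0.95) and FBP1 (0.995 and 0.98) were just under 2-fold. FABP1, the liver fatty acid carrier, rose by 1.16 (0.99 and adjusted p = 0.0585 without runt day 70 replicate 1). The uncoupling protein UCP2 fell by 1.01, and lost its call without any 1 of 4 runt arrays (-0.99 to -0.80). Of the 8 glycolysis, 6 cholesterol synthesis, 11 oxidative phosphorylation and 24 ribosomal protein genes measured, 0 passed in runts. Nor did any of 11 stress response or 17 antioxidant and iron genes. An adjusted p under 0.05 in limma at under 2-fold was reached by 3 cholesterol synthesis, 2 glycolysis, 2 stress response and 1 oxidative phosphorylation genes. All 6 cholesterol synthesis genes lay above 0 (median 0.45). P4HA1, a collagen hydroxylase (1.10, and 0.998 without runt day 70 replicate 1), was the 1 of 11 hypoxia response genes that rose (9.09% against 7.03%).

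In the growth factor axis IGFBP2, a carrier of insulin-like growth factors abundant in fetal plasma, was at 7.66, 7.09, 7.71 and 7.09 in day 70 runts and 7.05, 5.79, 4.59 and 6.37 in day 50 runts. Day 50 arrays spread over more than 2 log2 units below the day 70 arrays, and the rise was 2.7-fold (log2 change 1.44, SE 0.46, adjusted p = 0.0213). It did not pass without runt day 50 replicate 3 (0.98), day 70 replicate 1 (1.34) or day 70 replicate 3 (1.33). Controls rose by 2.32. IGFBP3 was at 0.97 (adjusted p = 0.00228, under 2-fold). The growth factors IGF2 (0.24) and IGF1 (0.21), the growth hormone receptor GHR (0.72) and DLK1 (0.62), an imprinted fetal growth regulator, did not pass. IGF1 and GHR turned to -0.39 and -0.41 under normexp. NR3C1, the glucocorticoid receptor, rose 2.13-fold (1.34, 1.58, 1.46 and 1.63 in day 70 runts, 0.49, 0.32, 0.20 and 0.62 in day 50 runts, adjusted p = 5.74e-05). NR3C1 was the 1 of 8 glucocorticoid response genes to pass (12.5% against 7.03% of all named genes higher). It was just under 2-fold in the authors' value table and after quantile normalization (0.99 in each) and at 0.83 under normexp.

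Some of the genes that interferons induce in antiviral defence rose. CXCL10, a chemokine that draws T cells, was at 1.01, 2.37, 2.02 and 2.86 in day 70 runts and -1.38, -0.59, -1.09 and -0.72 in day 50 runts (8.03-fold, SE of the log2 change 0.42, adjusted p = 2.59e-05). MX1, an antiviral GTPase, was at 2.34, 4.38, 3.91 and 3.86 on day 70 and 1.30, 1.46, 0.51 and 1.33 on day 50 (5.55-fold, adjusted p = 0.000124). GBP1, a guanylate-binding protein, was at -2.48, -1.18, -1.54 and -0.85 on day 70 and -5.05, -4.65, -3.79 and -4.50 on day 50 (log2 change 2.99, adjusted p = 0.000118). GBP1 was well above background on 1 of 4 day 50 arrays, so this change is taken mostly against background, and under normexp it was at 0.33 and did not pass. In all 3 genes the day 70 arrays lay above the day 50 arrays, and day 70 replicate 1 was the lowest of its group. RSAD2 was at least 1.59-fold higher (adjusted p = 0.000457), well above background on 3 of 4 day 70 arrays and 0 of 4 day 50 arrays.

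A list of 26 measured interferon response genes, drawn up after these values had been seen and so no independent evidence, held 12 rises and 0 falls (46.2% against 7.03% of all named genes, median 0.91), with 7 rises in controls (median 0.58), all 7 of them among the 12. All 12 were without overlap between the days. Leaving out 1 runt array at a time gave 11 to 15 rises, and normexp gave 6. They included the sensors IFIH1 (1.41) and OAS2 (1.61), the regulators IRF1 (1.62) and IRF9 (1.09), and IFNGR1 (1.37), a receptor chain of interferon gamma. Another IRF9 probe (0.31) and another IFNGR1 probe (0.19) did not pass. MX2 (-0.15) and IFNAR1 (0.24) did not pass. In a list of 12 class I antigen presentation genes, also drawn up later, 5 rose and 0 fell (41.7% against 7.03% of all named genes higher, with 3 rises in controls). These were SLA-2 (1.62), SLA-6 (1.49) and SLA-3 (1.24), the peptide pump TAP1 (1.16) and the immunoproteasome subunit PSMB9 (1.10). SLA-6 overlapped between the days (limma adjusted p = 0.040), while the other 4 were apart. It was at -0.65, 0.38, -0.71 and 0.86 in day 70 runts and -3.83, -0.35, -1.02 and -0.89 in day 50 runts, where replicate 1 lay far below the rest. Leaving out 1 runt array at a time gave 3 to 6 rises in this list. Class I genes of the pig are much alike, so a probe may read more than 1 of them.

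Class II antigen genes and a few macrophage genes rose. SIGLEC1, a sialic acid receptor of resident macrophages, was at -4.35, -3.77, -3.35 and -2.46 in day 70 runts and -5.61, -6.79, -4.70 and -6.68 in day 50 runts, where none was well above background, so it was at least 2.36-fold higher (adjusted p = 0.00144). Its sign turned under normexp (-0.27). SLA-DRA, a class II chain, was at 2.51, 2.39, 2.98 and 3.38 on day 70 and 0.22, 0.83, 0.59 and 1.17 on day 50 (4.34-fold, adjusted p = 4.21e-05), and 3 other probes of it also rose (1.49 to 1.86). CD14, the endotoxin receptor, was at 3.16, 3.33, 2.48 and 2.55 on day 70 and 1.61, 0.89, 1.18 and 0.62 on day 50 (3.5-fold, adjusted p = 7.82e-06). The groups were apart in all 3 genes. Of 21 measured genes of Kupffer cells and monocytes, 7 rose and 0 fell (33.3% against 7.03%, median 0.61), against 5 rises in controls. The invariant chain CD74 (1.49) and the class II genes SLA-DQA1 (2.26), SLA-DQB1 (1.73) and SLA-DRB1 (1.17) completed the 7. Defining markers of macrophages such as CD163 (0.33), AIF1 (0.58) and C1QA (0.44) did not pass, and the part that cell numbers had in these rises was not tested.

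Part of the lymphocyte genes rose, several at low signal. Of 15 measured, 7 rose, 1 fell and 7 did not pass (46.7% against 7.03% of all named genes higher, 6.67% against 1.14% lower, median 0.89, or 0.33 with the 5 members below background throughout their lower group at their bounds), against 4 rises and 1 fall in controls, and normexp left 0 rises. VPREB1, the surrogate light chain of pre-B cells, was at -1.49, -0.84, -1.16 and -0.81 in day 70 runts and -2.68, -2.83, -3.89 and -3.00 in day 50 runts (4.06-fold, adjusted p = 0.00207). CD247, a T cell receptor subunit, rose by 1.41 (adjusted p = 0.00254), also at another probe (1.23). CD3G (adjusted p = 1.12e-05) was well above background on 2 of 4 day 70 arrays and 0 of 4 day 50 arrays, so its fold is not given. CD4 was at least 1.31-fold and BLNK at least 1.26-fold higher, and CD3G, CD4 and BLNK turned to -0.42, -0.46 and -0.45 under normexp. CCR7 (1.38) and CD79A (1.01) rose too. CD180, a toll-like receptor relative of B cells, was at -3.40, -1.71, -2.45 and -1.42 on day 70 and -6.81, -3.51, -3.71 and -7.08 on day 50 (log2 change 3.03, adjusted p = 0.0039). It did not overlap, but it did not pass within slides 4 to 9 (2.16) or under normexp (0.23), and 2 of 4 day 50 arrays were well above background. In controls it was at 0.22.

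Against these rises KLRK1, the NKG2D receptor of natural killer cells, fell to -2.63, -2.85, -2.20 and -3.26 in day 70 runts, against -1.15, -1.14, -0.78 and -1.18 in day 50 runts. The groups lay more than 1 log2 unit apart and the fall was 3.19-fold (log2 change -1.67, SE 0.27, adjusted p = 0.000113), with -2.45 in controls and -0.87 in runts under normexp, under 2-fold. Granulocyte genes did not pass in runts. All 11 measured lay above 0 (median 0.74), with lactoferrin LTF at 0.90 (adjusted p = 0.287) and MMP9 at 0.75, whereas in controls 5 rose, LTF by 1.95 and MMP9 by 1.76. The difference between the courses was not past an unadjusted p of 0.05 for any of the 11. PMAP-36, an antimicrobial peptide of myeloid cells, was at -4.35, 4.93, -3.75 and 4.99 in day 70 runts and -5.23, -6.45, -6.06 and -6.66 in day 50 runts. Day 70 replicates 2 and 4 lay more than 8 log2 units above replicates 1 and 3, and it did not pass (adjusted p = 0.0793). Controls were as divided, at 5.60, 4.94, -6.22 and -3.76 on day 70 and 3.19, -5.34, -5.39 and -6.96 on day 50.

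Red cell and cell cycle genes did not pass in runts, and most platelet genes lay lower on day 70. HBE1, an embryonic globin of red cells, was at 2.50, 4.19, 3.87 and 2.54 in day 70 runts and 3.81, 3.91, 4.06 and 3.92 in day 50 runts. Replicates 2 and 3 of day 70 stayed at the day 50 level, and the change did not pass (log2 change -0.65, SE 0.34, adjusted p = 0.169). In controls it fell by 1.52 (adjusted p = 0.0024), and the difference between the courses was 0.87 (unadjusted p = 0.0819). None of 4 measured red cell genes passed in runts (median -0.53), nor did any of 13 cell cycle genes (median -0.21), with AURKA, a mitotic kinase, at -0.56 and CDK4 at -0.43. SELP, the P-selectin of platelets and endothelium, fell to 2.30, 1.79, 1.77 and 1.67 in day 70 runts, against 3.88, 3.10, 3.43 and 2.82 in day 50 runts (2.68-fold, adjusted p = 0.000321), without overlap, and was at -0.88 under normexp, which did not pass. The platelet integrin ITGA2B was at -0.98 (adjusted p = 8.2e-05) and the platelet chemokine PPBP at -0.96 (adjusted p = 0.0117), both under 2-fold. TBXAS1, the thromboxane synthase, went the other way (1.42), but did not pass without runt day 50 replicate 3 (1.00, adjusted p = 0.0616) and was at -0.36 under normexp. Of the 6 measured megakaryocyte and platelet genes, 1 rose and 1 fell (16.7% in each direction, against 7.03% of all named genes higher and 1.14% lower). Their median was -0.86 in runts and -0.49 in controls. In runts 5 lay below 0, and 5 had an adjusted p under 0.05 in limma.

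Among genes of supporting and ectopic tissues NTN1, the guidance factor netrin, rose most. It was at 0.081, -0.28, -0.83 and 1.17 in day 70 runts and -3.14, -3.11, -3.80 and -2.35 in day 50 runts (8.78-fold, log2 change 3.13, SE 0.51, adjusted p = 0.000113), with no overlap and a change of 3.12 in controls. Under normexp it was at 0.93 and did not pass. It was the 1 of 17 stellate cell and fibroblast genes to pass in runts (5.88% against 7.03% of all named genes higher), where 4 did in controls. The collagen COL5A1 (0.91) and RGS5 (1.14) of pericytes did not pass. AQP1, a water channel of red cells, endothelium and bile ducts, fell 2.25-fold (adjusted p = 0.0154; -1.02 and adjusted p = 0.0510 without runt day 50 replicate 1). EPCAM, an epithelial adhesion molecule, rose by 1.11 (0.94 without runt day 50 replicate 3) and EDN1, endothelin, by 1.06. EDN1 did not pass without any 1 of 3 runt arrays (0.82 to 0.97) and turned to -0.48 under normexp. Of 15 muscle genes TNNI2 (2.33) and MYH7 (1.72), contractile proteins, rose (13.3% against 7.03% of all named genes), while another MYH7 probe was at 0.92, under 2-fold. LEAP2, the liver-expressed antimicrobial peptide, was at -1.59, 4.20, 2.09 and -1.82 in day 70 runts and -2.99, -1.96, -3.69 and -4.08 in day 50 runts. Replicates 2 and 3 of day 70 stood far above its replicates 1 and 4, and it did not pass without runt day 70 replicate 2 (2.74, adjusted p = 0.0809; 3.90 and adjusted p = 0.0135 with it).

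**Figure D4:**
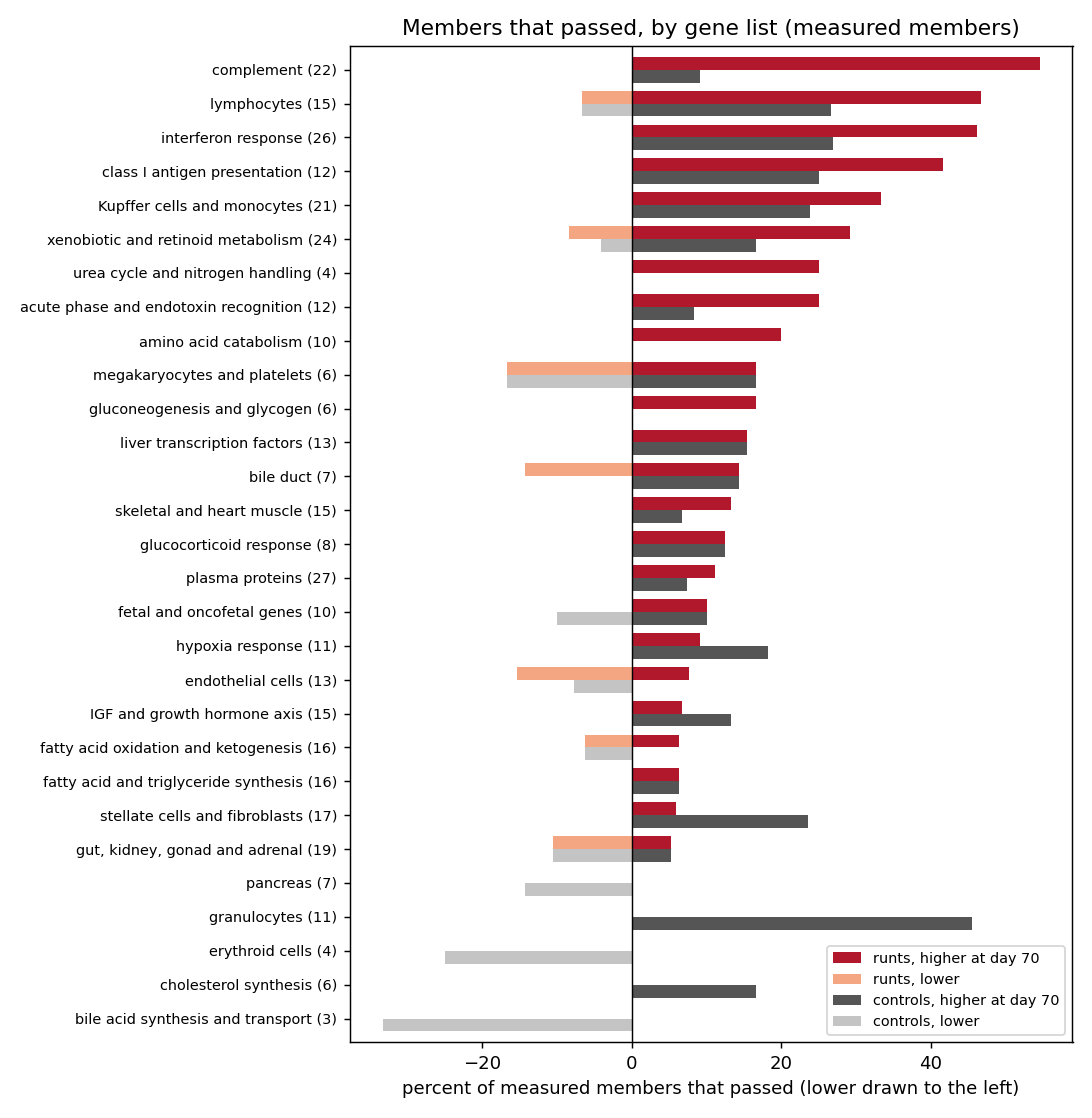
Percent of the measured members of each gene list that passed from day 50 to day 70 (horizontal axis, falls drawn to the left), runts in red and orange above controls in grey, with the number measured in brackets; lists with no passing member in either course are left out. Complement has the largest share in runts, 12 of 22, and granulocyte genes pass in controls, 5 of 11, and not in runts.

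Among the named genes falls were fewer (18 against 111 rises), while over all features they were more (1374 against 917). PDZK1IP1, a membrane protein of epithelia, fell to 1.17, 1.13, 2.02 and -0.85 in day 70 runts, against 3.31, 2.45, 3.44 and 2.85 in day 50 runts (4.42-fold, log2 change -2.14, SE 0.50, adjusted p = 0.00253). Replicate 4 of day 70 was the lowest, no arrays overlapped, and controls changed by -2.72. TLDC2 was at -5.19, -4.27, -5.36 and -5.01 on day 70 and -3.54, -2.51, -2.74 and -2.99 on day 50 (4.03-fold, adjusted p = 0.00201), well above background on 1 of 4 day 70 arrays. AQP3, a channel for water and glycerol, was at least 2.92-fold lower and the chemokine CCL27 at least 1.69-fold lower (adjusted p = 0.0158 and 0.0027), neither above background on any day 70 array. DIRAS3, an imprinted small GTPase, fell 2.66-fold (-0.84, -0.34, -1.22 and -1.42 in day 70 runts, 0.87, 0.66, 0.35 and -0.056 in day 50 runts, adjusted p = 0.00144), with a second probe at -1.52. IVNS1ABP, a Kelch-domain protein, fell 2.48-fold (adjusted p = 9e-05), and the groups of both genes were apart. The phospholipase PLCD4 (-1.35), the crystallin CRYBB1 (-1.25) and the prohormone convertase PCSK2 (-1.17) fell too. PLCD4 lost its call without any 1 of 5 runt arrays (-1.38 to -1.16), CRYBB1 without any 1 of 3 (-1.20 to -1.15) and PCSK2 without runt day 70 replicate 4 (-0.80). In the gut and kidney list GAST, gastrin, fell by 1.09 and lost its call without any 1 of 4 runt arrays (-1.07 to -0.89).

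**Figure D5:**
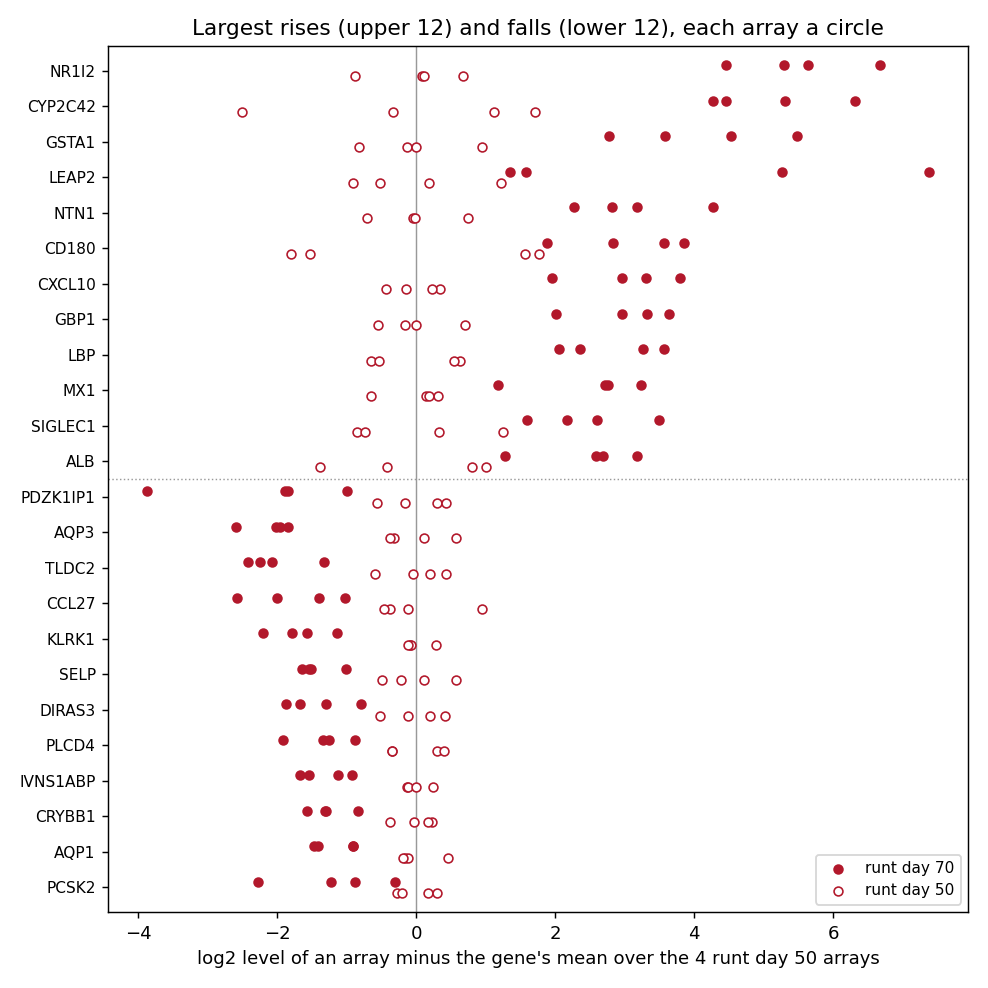
Log2 level of each runt array minus the gene's mean over the 4 day 50 arrays (horizontal axis) for the 12 largest rises (upper rows) and the 12 largest falls (lower rows) without overlap, day 70 filled and day 50 open. LEAP2 splits into 2 low and 2 high arrays on day 70, and CD180 into 2 low and 2 high arrays on day 50.

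The neighbouring steps of the runt course, which share arrays with this one, are given side by side. From day 37 to day 50, 5.83% of all features and 3.8% of named genes passed, the latter 28 higher and 32 lower of 1578. Of the 111 genes that later rose, 8 were already rising and 7 were falling. From day 70 to day 110, 11.1% and 16.2% passed, with 121 named genes higher and 134 lower of 1578. Of the same 111 genes, 33 rose further and 7 fell. NR1I2 was at 0.46 from day 37 to 50 (adjusted p = 0.499) and rose by 3.89 from day 70 to 110 (adjusted p = 3.61e-08). MASP2 fell by 1.51 from day 37 to 50, rose by 1.27 to day 70 and by 2.42 to day 110, and C2 followed the same order (-1.70, 2.03 and 1.49), all 6 of these changes past the test. MX1 fell back after day 70 (-1.16, adjusted p = 0.0367). KLRK1 had fallen by 2.16 from day 37 to 50 and did not pass after day 70 (0.58, adjusted p = 0.126). SELP and PDZK1IP1 fell from day 70 to 110 (-1.32 and -2.95), and AQP1 fell by 3.45.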

How the data were processed

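Per the file headers, each array was read with Feature Extraction 10.7.3.1, whose processed signal is a background-subtracted fluorescence intensity. A log2 value table deposited by the authors was an alternative; the submitters' processing notes name Partek, with no version in the sources used here. The table's columns tracked the log2 signals (correlation 0.988 to 1.000), with medians of 5.15, and how they were centred is unknown. Control and outlier spots were dropped, and log2 intensity minus the array's 75th percentile was used. Probes were tested when well above background on 3 of 4 arrays of at least 1 group. Symbols came from RefSeq accessions matched to Sscrofa11.1 (2646 of 43603 probes), the brightest probe standing for a gene, so most features have no name. Group means of 8 groups over 32 arrays were fitted in limma 3.58.1 (R 4.3.3), with Benjamini-Hochberg adjustment over all features, two-sided, and 245 features had missing values. Where a group was below background on all its arrays, folds are lower bounds against the background limit. Named genes were the 12 largest rises and falls without overlap and well above background in the higher group, up to 4 passing members of each gene list (else the 1 with the smallest p), and a panel of ALB, AFP and growth and liver genes. Other genes are list members or, in the closing observations, genes chosen after their values were seen. Members and lists were chosen with earlier results of these data known. Normexp used median signals, as the files hold no mean signals. Same-numbered control arrays of the 2 days deviated together (0.15 to 0.40), runt arrays did not all do so, and the fit has no replicate block. Control replicates 1, 3 and 4 of the 2 days also shared a slide. In data simulated at these levels, 79 of 100 features changed by 1.5 and 93 of 100 changed by 3 (log2) passed in the runt comparison. There were 3 false calls among the features left unchanged. The simulated noise was independent between features and arrays, without slide or litter, and far fewer features changed than in the real data. These counts therefore do not carry over to the calls made here. Alternatives covered background correction, scaling, filters, slides and single arrays. Samples are separate fetuses. Some items are not reported here.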

Additional observations from a re-analysis of the deposited data

Results flagged for a closer look

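In 10 of the 160 gene and group sets tested, 1 array lay apart from the other 3 of its group by Dixon's gap test, and chance flags about 1 in 20 such sets. In day 50 runts MX1 was low in replicate 3 (0.51, others 1.30 to 1.46) and KLRK1 high in it (-0.78, others -1.18 to -1.14). Replicate 1 of that group, the array with its own slide, was high in AQP1 (0.54, others -0.10 to -0.037) and PRDX6 (3.67, others 3.07 to 3.15) and low in SLA-DQA1 (-0.84, others 0.25 to 0.44). Replicate 2 was high in APOA4 (3.72, others -1.09 to -0.32) and KLKB1 (1.64, others 0.44 to 0.61) and low in PFKFB1, a regulator of glycolysis (0.95, others 1.16 to 1.17). In day 70 runts CYP2C49 was low in replicate 3 (-0.46, others 1.73 to 2.07) and HSPB1, a small heat shock protein, high in replicate 1 (4.48, others 4.26 to 4.30).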

How the results depend on the processing

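The count of features that passed in runts was 2291 and stayed between 1912 and 2358 under quantile normalization, median centring, the authors' value table, no filter on dim probes, a fit of the compared arrays only, slide as a fixed (2233) or random (2358) block, and slides 4 to 9 only (1990). It moved to 789 under normexp (95.8% higher, 312 shared), to 1137 with probes well above background on all 32 arrays (49.9% higher) and to 36 on the slides with both runt days (13 shared). That last fit took all arrays of slides 2 and 8, of which 4 were the runt arrays compared. None of the 58 passing named genes passed in it, and all kept their sign. The control count of 2195 moved to 441 under normexp (63.0% higher), 1022 with the stricter filter and 502 within slides 4 to 9; the slides with both runt days hold no control arrays of both days. Leaving out 1 array gave 1967 to 2457 in runts, 1726 to 2741 in controls and 0 for the difference between the courses, except 1 without runt day 70 replicate 1. The cause of these moves was not tested, beyond fewer arrays or probes where the setting has them. Normexp moved the median change of all features to -0.27 and median centring to 0.10. Under normexp 37 of 58 named genes lost their call. Besides those whose sign turned and those given beside their values, these were LEAP2, CYP2C49, CYP1A1, VPREB1, ENPEP, KLKB1, CIDEC, EPCAM, P4HA1, UCP2, GAST, PCSK2, AQP1, CRYBB1, IVNS1ABP, PLCD4, DIRAS3, CCL27, TLDC2 and AQP3. The authors' value table lost 14 calls (FCN2, CYP2C49, IGFBP2, KLKB1, FBP1, FABP1, NR3C1, NAGS, SERPINA7, HP, GAST, CRYBB1, PLCD4 and CCL27), quantile normalization all of these but CRYBB1 and CCL27, and slide as a fixed block 5 (ALB, CYP2C49, CYP1A1, KLKB1 and EDN1). Normexp turned SIGLEC1 to -0.27, C6 to -0.30, CD3G to -0.42, CD4 to -0.46, BLNK to -0.45, TBXAS1 to -0.36, EDN1 to -0.48, CYP8B1 to -0.51, CD34 to -0.016, GHR to -0.41, IGF1 to -0.39, CYP7A1 to -0.57 and AFP to 0.27. AFP also turned to 0.029 with slide as a fixed block, 0.093 on the slides with both days and 0.22 without runt day 50 replicate 1 (down to -0.37 without replicate 4). CYP7A1, below background on both days, turned to -0.057 with slide as a fixed block and -0.072 without runt day 70 replicate 3 (up to 0.16 with another runt array left out). APOA4 turned to -0.38 within slides 4 to 9 and -0.25 without runt day 50 replicate 4 (up to 1.36 without replicate 2), and CYP2E1 to -0.024 on the slides with both days. Same-numbered runt arrays of the 2 days had correlations of their deviations of 0.054, -0.22, 0.098 and 0.34, and 2 of 4 correlated best with their own number. These were replicates 3 and 4, the runt pairs that shared a slide, so number and slide cannot be told apart there. A replicate block gave 2420 features in runts, 2481 in controls and 0 for the difference. A block of same-numbered runt and control arrays of a day, taken as littermates, gave 2277, 2159 and 0. The labels do not say that equal numbers mark a litter, so this block may not capture the littermate pairs. With it 1155 features had an unadjusted p under 0.05 in limma for the difference, against 687 without it. Dim genes limit what these arrays show, since a probe below background has only a bound.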

Other observations

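A few membrane peptidases were among the other genes that rose in runts, picked after their values had been seen. ANPEP, aminopeptidase N, was at 5.15, 5.10, 4.52 and 5.24 in day 70 runts and 3.30, 3.68, 4.03 and 3.37 in day 50 runts (2.65-fold, adjusted p = 7.27e-05). DPP4, the dipeptidyl peptidase that inactivates incretin hormones, was at 4.58, 4.20, 3.89 and 4.44 on day 70 and 3.18, 3.01, 2.90 and 3.10 on day 50 (2.35-fold, adjusted p = 9.48e-05). Neither gene's groups overlapped, and the control log2 changes were 0.84 for ANPEP and 0.98 for DPP4. ENPEP, which cleaves angiotensin, rose by 1.86 with overlapping arrays (0.63 under normexp, not past the test), and ACE, the angiotensin-converting enzyme, was at least 1.16-fold higher (adjusted p = 0.000197), well above background on 2 of 4 day 70 arrays.

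A few other genes are given as single values, also picked after they had been seen. DIO1, the liver deiodinase that activates thyroxine, was at 0.15, 0.13, -0.99 and 0.87 in day 70 runts and -2.40, -2.33, -2.82 and -1.63 in day 50 runts (5.03-fold, adjusted p = 0.00269), with 1.55 in controls. NR0B1, an orphan receptor that represses other nuclear receptors, was at least 2.85-fold higher (adjusted p = 6.89e-05). PTH1R, the parathyroid hormone receptor, rose 2.24-fold (0.77, 0.43, 0.78 and 1.13 in day 70 runts, -0.26, -0.25, -0.35 and -0.68 in day 50 runts), while another probe of it (0.61) did not pass. Among channels and carriers AQP9, which takes up glycerol, rose 2.84-fold (1.68 in controls on the log2 scale), and the ammonium transporter RHBG rose 2.86-fold. NPPC, C-type natriuretic peptide, rose by 1.10 in runts and was at -0.62 in controls (difference unadjusted p = 0.00224, not past adjustment), with overlapping arrays.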
